A study of Mus musculus with 12 samples.

Results

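Tubulin genes encode the building blocks of microtubules. Of the 33217 Ensembl gene IDs in the count table, 10 belong to the tubulin genes described here: the beta-tubulins Tubb3, Tubb2a, Tubb2b, Tubb4b, Tubb5 and Tubb6 and the alpha-tubulins Tuba1a, Tuba1b, Tuba1c and Tuba4a. They were found by matching the IDs to these symbols in GENCODE M21. The family was chosen by a measured value, the lower level of Tubb3 with anti-PD1 in WT tumors, so the values of that comparison are given as a description. All 10 members passed the filter on low counts, as did 14340 genes in all.

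MC38 is a mouse colon adenocarcinoma cell line. The study asked what the Rac1 A159V mutation, in a small GTPase that controls the actin cytoskeleton, does to tumor cells and to their response to anti-PD1, an antibody that blocks an inhibitory receptor of T cells. Unedited cells (WT) or cells carrying a homozygous CRISPR knock-in of A159V (A159V) were placed under the skin of C57BL/6 mice aged 6 to 8 weeks. Mice received 100 µg of anti-PD1 or of an IgG isotype control every 3 days from day 3, and the tumors were taken on day 13. The edited cells are a single-cell clone, clone 9 where the study does not say otherwise, so the mutation and the clone cannot be told apart. Tumor cells were separated from each digested tumor with a magnetic kit, and polyA RNA was sequenced from 3 samples in each of 4 groups, namely WT IgG (numbered 1, 2 and 4 in the labels), WT anti-PD1 (1, 2 and 3), A159V IgG (1, 2 and 5) and A159V anti-PD1 (1, 2 and 3).

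Alpha- and beta-tubulin form heterodimers that stack into the wall of the microtubule, the polymer that pulls chromosomes apart in mitosis and serves as a track for cargo. The isotypes are alike along most of their length and differ mainly at the tail, where enzymes add or remove glutamate and tyrosine residues. Tubb5 and Tuba1b are the isotypes of dividing cells in general, whereas Tubb3 is best known from neurons and is also made by many carcinomas. Cells tune tubulin mRNA to the amount of free tubulin: the factor TTC5 recognizes the first residues of a nascent tubulin chain and the mRNA is then degraded.

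The coding sequences show where the isotypes can be told apart by reads, and the tails show where they differ most. The first 12 coding bases, which encode the stretch that TTC5 recognizes, were atgagggagatc in Tubb3, atgagggaaatc in Tubb5 and atgcgtgagtgc in Tuba1a, Tuba1b and Tuba1c. The last 60 coding bases of 5 beta isotypes, stop codon included, are given 5′ to 3′ with capitals at the bases that did not match Tubb5 in an alignment of the coding sequences.
Tubb5: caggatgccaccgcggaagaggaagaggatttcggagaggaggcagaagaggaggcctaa
Tubb3: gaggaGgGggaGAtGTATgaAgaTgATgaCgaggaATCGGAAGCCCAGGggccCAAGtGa
Tubb4b: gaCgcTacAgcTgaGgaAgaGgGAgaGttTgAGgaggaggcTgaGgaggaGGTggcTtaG
Tubb2a: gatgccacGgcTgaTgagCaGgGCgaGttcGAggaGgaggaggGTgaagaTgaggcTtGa
Tubb2b: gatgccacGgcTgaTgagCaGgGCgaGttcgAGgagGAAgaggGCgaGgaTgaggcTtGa
Of these 60 bases, 32 did not match in Tubb3, against 20 in Tubb4b, 16 in Tubb2a and 19 in Tubb2b.

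Over the whole coding sequence, Tubb3 was 82.3% identical to Tubb5 and 86.5% identical to Tubb6, its closest relative among the members. None of the 1769 stretches of 100 bases in the Tubb3 transcript occurred in another annotated transcript of a different gene, and the same held for Tubb5 and Tubb6. In contrast, 73.0% of such stretches of Tuba1b, 65.8% of Tuba1a and 53.4% of Tuba1c were shared with other genes, mostly with one another, as were 36.9% of those of Tubb2a and 27.7% of those of Tubb2b. Of Tubb4b, 30.6% were shared with its pseudogenes and with Fam166a on the opposite strand, and of Tuba4a, 46.7% were shared with Stk16, which overlaps it on the opposite strand. How reads of these genes were divided or dropped is not given in the sources used here, so the levels of Tuba1a, Tuba1b, Tuba1c, Tubb2a, Tubb2b, Tubb4b and Tuba4a are uncertain, and those of Tubb3, Tubb5 and Tubb6 less so.

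In the mouse genome (GRCm38, mm10), Tubb3 (ENSMUSG00000062380) spans chr8:123411424-123422015 on the plus strand, 680 bp after Mc1r and 1512 bp before Def8. Mc1r, the melanocortin receptor, had at most 15 counts in any sample, and Gm20388, a gene model that spans Tubb3 on the same strand, had 0 counts in every sample. Def8 was called higher in A159V than in WT with treatments averaged (log2 fold change 0.34, adjusted p = 0.00371, edgeR). Tubb5 (ENSMUSG00000001525) lies at chr17:35833921-35838306 and Tubb4b at chr2:25222160-25224702. Tubb2a (chr13:34074274-34078007) and Tubb2b (chr13:34126748-34130466) are neighbours, as are Tuba1b (chr15:98931425-98934565), Tuba1a (chr15:98949837-98953703) and Tuba1c (chr15:99029891-99038110). Tuba4a lies at chr1:75214228-75219865.

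The 12 libraries held between 14053582 and 21949942 counts. Levels below are in CPM, counts set against the library total after TMM scaling, and a gene was called changed where the Benjamini-Hochberg adjusted p of edgeR's quasi-likelihood test over all 14340 genes was below 0.05 and the log2 fold change was beyond 0.3. Rac1, the edited gene, lay between 334 and 511 CPM with no call between genotypes (log2 fold change -0.14, adjusted p = 0.296). WT IgG replicate 1 stood above the other WT IgG samples in 9 of the 10 tubulin genes, so counts of called members are also given without it where they moved. The 6 epithelial markers summed to at most 4.22 CPM in any sample, with Epcam at most 2 counts, so the adenocarcinoma label has no support from these markers in this line. Nothing in the labels names separate litters or cages. The edgeR p-values set each difference against the spread between these samples, which is estimated in part across genes.

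Tubb3, the class III beta-tubulin, stood at 119, 94.6 and 118 CPM in WT IgG and at 59.5, 56.1 and 51.5 CPM in WT anti-PD1. In A159V IgG it stood at 97.7, 101 and 99.4 CPM, and in A159V anti-PD1 at 119, 87.3 and 108 CPM. The WT anti-PD1 samples were the 3 lowest of the 12, and the other 9 samples overlapped across their groups. In WT tumors the log2 difference between anti-PD1 and IgG was -0.99 (SE 0.14), the value for which the family was chosen.

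**Figure D1:**
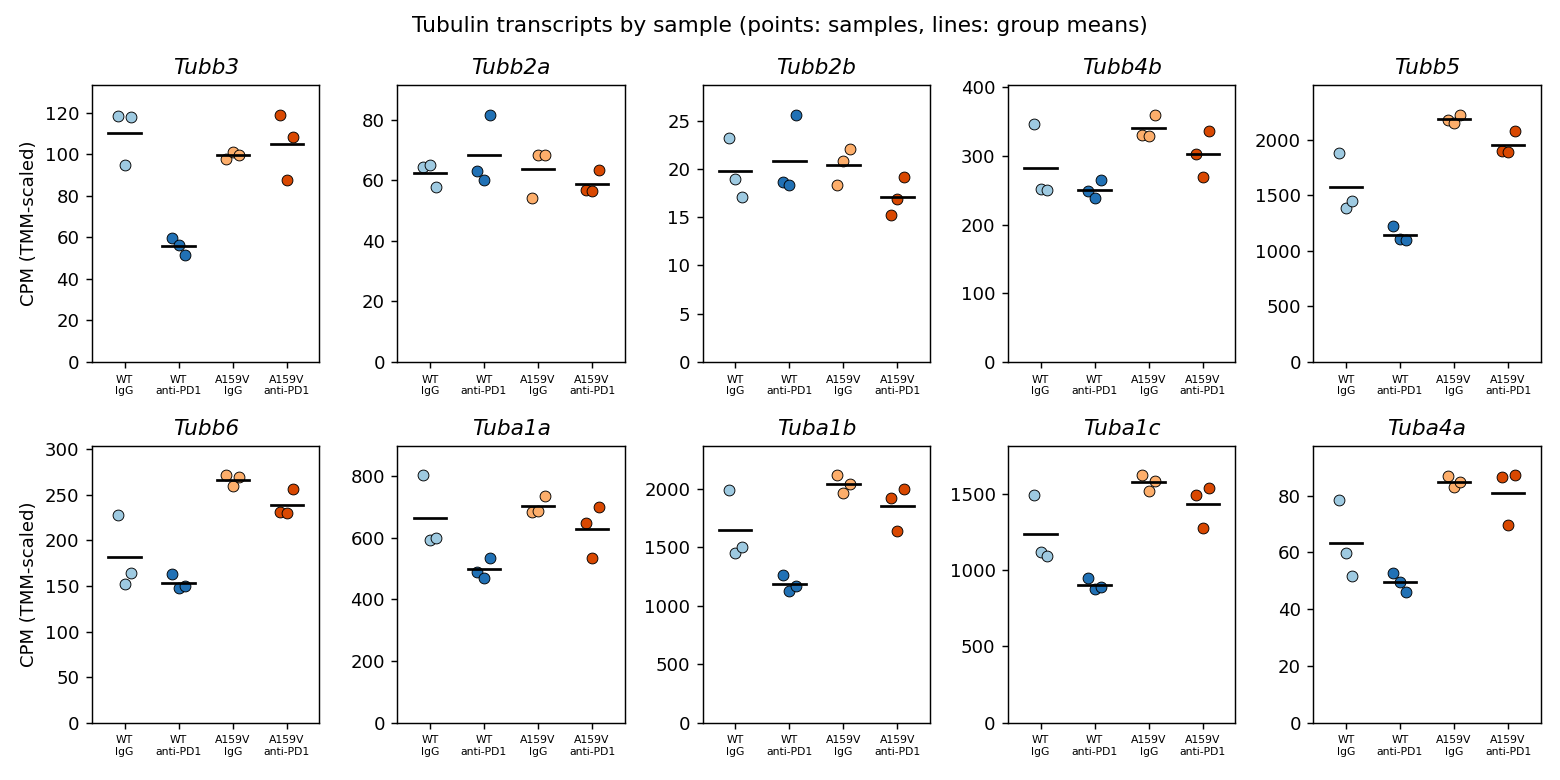
Levels of the 10 tubulin genes in CPM on a linear axis from 0, by group (points are single samples, 3 per group, and lines are group means). Tubb3 was lowest in the 3 WT anti-PD1 samples (51.5 to 59.5 CPM), and Tubb5 was higher in all 6 A159V samples than in the 6 WT samples.

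No tubulin gene was called between anti-PD1 and IgG in A159V tumors, a comparison that shares no sample with the one that chose Tubb3. None of the 14340 genes was called in it either (0%), and 521 had an unadjusted p under 0.05 with edgeR. For Tubb3 the log2 difference was 0.08 (95% interval -0.22 to 0.37, 3 against 3 samples), with A159V anti-PD1 samples both above and below all A159V IgG samples. The other 9 members lay between -0.26 (Tubb2b) and -0.07 (Tuba4a). All 10 adjusted p-values were 1.

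The comparison in WT tumors chose the family, so its values are a description and nothing is read from its calls, which held 1 member, Tubb3, among the 0.132% of all genes called lower. The log2 differences of the other members were -0.48 (Tuba1b), -0.46 (Tubb5), -0.45 (Tuba1c), -0.42 (Tuba1a), -0.36 (Tuba4a), -0.24 (Tubb6), -0.17 (Tubb4b), 0.08 (Tubb2b) and 0.13 (Tubb2a). The number of members past the thresholds depended on single libraries: it was 6 without WT IgG replicate 4, when 3458 genes were called in all, and 0 without WT IgG replicate 1 or without any one of the WT anti-PD1 samples. The difference between the treatment effects in A159V and in WT was 1.06 for Tubb3 on the log2 scale (SE 0.20), which is a description since it contains the comparison that chose the gene. Among the other members the interaction ranged from -0.34 (Tubb2b) to 0.34 (Tuba1b), and no member was called, beside 0.00697% of all genes, whereas 1 was called without WT IgG replicate 4. The log2 difference of Tubb3 in WT stayed between -1.10 and -0.93 as each sample was left out.

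**Figure D2:**
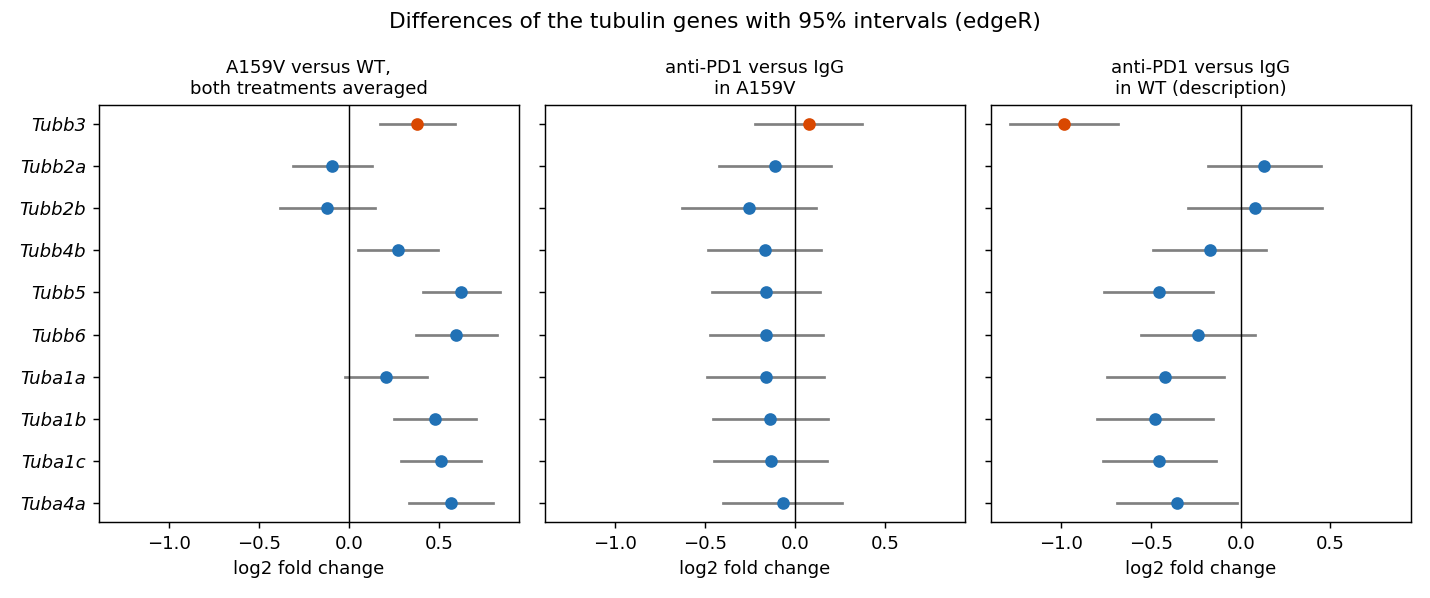
Log2 fold changes of the 10 tubulin genes (points) with 95% intervals (lines) from the edgeR fit of 12 samples, in 3 comparisons. Averaged over treatments, 8 of the members lay above 0, in A159V tumors each interval of the treatment difference spanned 0, and in WT tumors Tubb3 lay at -0.99.

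Between genotypes, with both treatments averaged, 6 of the 10 tubulin genes were called higher in A159V than in WT, beside 19.1% of all genes tested, and none was called lower, beside 16.8%. The 6 were Tubb5, Tubb6, Tuba4a, Tuba1c and Tuba1b, and also Tubb3, which is counted here although its low values in WT chose the family. This comparison weighs the WT IgG and WT anti-PD1 samples equally, so the treatment difference in WT is not itself part of it. It does hold the WT anti-PD1 samples whose low Tubb3 values chose the family, so the Tubb3 call is a description. Over all genes, TMM gave 2743 higher and 2410 lower genes against 1623 higher and 3095 lower after upper-quartile normalization, which moved the median log2 difference of all genes from 0.04 to -0.08. No member changed sign under either scaling or under the other alternatives.

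Tubb5, the main beta-tubulin of proliferating cells, stood at 1875, 1381 and 1450 CPM in WT IgG and at 1224, 1109 and 1096 CPM in WT anti-PD1. In A159V IgG it stood at 2176, 2148 and 2224 CPM, and in A159V anti-PD1 at 1892, 1890 and 2074 CPM. The 6 A159V samples all lay above the 6 WT samples, although WT IgG replicate 1 came close to the A159V anti-PD1 samples. The log2 fold change was 0.62 (SE 0.10, adjusted p = 0.000405).

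Tubb6, a beta-tubulin found in many tissues (ENSMUSG00000001473, chr18:67390717-67402749), stood at 228, 152 and 164 CPM in WT IgG and at 163, 148 and 150 CPM in WT anti-PD1. It stood at 271, 260 and 269 CPM in A159V IgG and at 231, 229.7 and 257 CPM in A159V anti-PD1. As for Tubb5, no sample of one genotype reached the other, a pattern shared by 17.2% of all genes tested and by no other member. The log2 fold change was 0.60 (SE 0.10, adjusted p = 0.000743).

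The alpha-tubulins Tuba1b, Tuba1c and Tuba4a ran in parallel with Tubb5, but WT IgG replicate 1 reached the A159V range in each of them. Tuba1b, the most abundant member per kilobase of exon, had 1987, 1450 and 1507 CPM in WT IgG and 1265, 1123 and 1167 CPM in WT anti-PD1. Its A159V levels were 2117, 1963 and 2040 CPM with IgG and 1926, 1641 and 1998 CPM with anti-PD1. Its log2 fold change was 0.48 (SE 0.11, adjusted p = 0.00348). Tuba1c had 0.51 (adjusted p = 0.00205), with 1236 ± 224 CPM (IgG) and 903 ± 37.8 (anti-PD1) in WT against 1575 ± 52.3 (IgG) and 1436 ± 140 (anti-PD1) in A159V (SD, n = 3).

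Tuba4a, a minor alpha-tubulin whose gene encodes no tyrosine at its end, had 78.4, 59.8 and 51.5 CPM in WT IgG and 52.7, 49.7 and 45.9 CPM in WT anti-PD1. In A159V its levels were 86.8, 82.9 and 84.9 CPM with IgG and 86.4, 69.5 and 87.1 CPM with anti-PD1. One WT sample, WT IgG replicate 1, lay above the lowest A159V sample. Its log2 fold change was 0.57 (SE 0.11, adjusted p = 0.00143). Stk16, a kinase gene that shares 1379 exon bases with it on the other strand, had a log2 fold change of -0.23 (adjusted p = 0.117) and was not called.

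For Tubb3 the average was made of unequal parts. The log2 fold change of A159V against WT was 0.38 averaged (SE 0.10, adjusted p = 0.00828), 0.91 under anti-PD1 (SE 0.14) and -0.15 under IgG (SE 0.14, adjusted p = 0.434). The value under anti-PD1 rests on the same WT anti-PD1 samples as the comparison that chose the gene and is given with no test. The average holds these samples too, so its call for Tubb3 is a description. Averaged, the call was lost under upper-quartile normalization (log2 fold change 0.26), with the filter of at least 10 counts in every sample (0.28) and without WT IgG replicate 2 (0.28), where it fell below the fold threshold with adjusted p-values of 0.048, 0.036 and 0.0471.

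Tuba1a, an alpha-tubulin of neurons and of dividing cells, ranged from 469 to 803 CPM and was not called (log2 fold change 0.21, adjusted p = 0.145). Tubb4b, a widely made beta-tubulin, ranged from 239 to 360 CPM and was not called (0.27, adjusted p = 0.0540), although without A159V anti-PD1 replicate 2 it was (0.32). Tubb2a and Tubb2b, a pair of beta-tubulins best known from brain, had log2 fold changes of -0.09 (95% interval -0.31 to 0.13) and -0.12 (-0.38 to 0.14). Their levels lay between 54.0 and 81.6 CPM and between 15.2 and 25.6 CPM, and in both genes the highest sample was WT anti-PD1 replicate 3, the sample with the lowest Tubb3.

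Within IgG-treated tumors, 2 members were called higher in A159V, Tubb6 (log2 fold change 0.56, SE 0.15, adjusted p = 0.0149) and Tubb5 (0.48, SE 0.14, adjusted p = 0.0243), beside 15.6% of all genes, and none was called lower, beside 12.4%. The count was 6 without WT IgG replicate 1, 0 without WT IgG replicate 2, and 1 without A159V IgG replicate 1, 2 or 5. It was 0 after upper-quartile normalization. Within anti-PD1-treated tumors, Tubb3 was higher in A159V by 0.91, a description since its low WT values chose the family. Of the other 9 members, 5 were called higher, beside 11.2% of all genes, and none lower, beside 10.2%: these were Tubb5 (0.77), Tuba4a (0.71), Tuba1c (0.67), Tuba1b (0.65) and Tubb6 (0.64). Their adjusted p-values ran from 0.00234 to 0.00887. These genotype comparisons share the WT samples with the treatment comparison in WT.

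Per kilobase of exon, the order of the levels over all 12 samples was Tuba1b, Tuba1c, Tubb5, Tuba1a, Tubb4b, Tubb6, Tubb3, Tubb2a, Tuba4a and Tubb2b, from 897 CPM per kb for Tuba1b to 8.50 for Tubb2b. Tuba1c exceeded Tubb5 in 11 of 12 samples, but their values overlapped in all groups except WT anti-PD1. Tubb5 overlapped with Tuba1a, and Tubb6 with Tubb3, in WT IgG. Tubb3 exceeded Tubb2a in 9 of 12 samples and lay below it in the 3 WT anti-PD1 samples, where the order of the pair was the other way round. All other neighbours in the order were apart in every group. The order and the pools below depend on the length used. Tubb5 has 3327 exon bases and Tuba1b 1875, whereas their coding lengths are 1335 and 1356 bases.

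The summed per-length level of the 6 beta-tubulins was 788 ± 130 CPM per kb with IgG and 608 ± 24.7 with anti-PD1 in WT, and 1030 ± 23.2 with IgG and 930 ± 58.9 with anti-PD1 in A159V (SD, n = 3). That of the 4 alpha-tubulins was 1806 ± 324, 1316 ± 60.2, 2189 ± 66.9 and 1988 ± 211 CPM per kb in the same order. A159V exceeded WT by 282 CPM per kb for beta (exact permutation test within treatments, 2-sided, p = 0.005, the smallest of its 400 arrangements, adjusted p = 0.015 over 3 comparisons) and by 527 for alpha (p = 0.01, adjusted p = 0.015, exact permutation test). The ratio of beta to alpha stood at 0.437, 0.462, 0.471 and 0.470 and did not pass the test (p = 0.075, exact permutation test). The beta sum and the ratio include Tubb3, at 29.8 CPM per kb on average in WT anti-PD1 and 53.2 to 59.1 in the other groups. Those low values chose the family, so both tests are in part a description. The pool was not tested without Tubb3.

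Within the beta-tubulin pool, Tubb5 made up 59.8% with IgG and 56.5% with anti-PD1 in WT, and 63.7% with IgG and 63.1% with anti-PD1 in A159V. Its share was 5.25 percentage points higher in A159V (exact permutation p = 0.005, adjusted p = 0.00714 over the 10 isotypes). Lower in A159V were the shares of Tubb4b (by -2.76 points), Tubb2a (-2.10) and Tubb2b (-0.46), each with the same exact p = 0.005 and adjusted p = 0.00714. Tubb6 was higher by 0.715 points (exact permutation p = 0.015, adjusted p = 0.0167). Shares of a pool sum to a whole, so a higher share of Tubb5 lowers the others. Tubb3 is part of this pool, so its low WT anti-PD1 values enter each share. These shares use exon length. With coding length, Tubb5 made up 70.6% (IgG) and 67.6% (anti-PD1) in WT and 73.5% (IgG) and 73.1% (anti-PD1) in A159V.

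Tubb3 made up 7.56% ± 0.97 of the beta-tubulin pool in WT IgG and 4.91% ± 0.32 in WT anti-PD1, against 5.17% ± 0.15 (IgG) and 6.03% ± 0.85 (anti-PD1) in A159V (SD, n = 3). The shares of A159V IgG thus lay near those of WT anti-PD1, in contrast to the CPM levels. The genotype difference averaged over treatments, -0.634 points, did not pass the test (exact permutation p = 0.375). That average joins parts of opposite sign, so it cannot show either of them. Under IgG the A159V share was lower (5.17% against 7.56%, exact permutation p = 0.1), and under anti-PD1 it was higher (6.03% against 4.91%). Samples of WT and A159V did not overlap under either treatment. Both the anti-PD1 part and the average hold the WT samples whose low Tubb3 chose the family, so they are descriptions. Between treatments in A159V the difference was 0.864 points (exact permutation p = 0.2, where 3 against 3 samples cannot go below 0.1). With coding length in place of exon length, Tubb3 made up 4.94% (IgG) and 3.25% (anti-PD1) in WT and 3.30% (IgG) and 3.87% (anti-PD1) in A159V. The averaged genotype difference was then -0.510 points (exact permutation p = 0.3), again from parts of opposite sign.

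**Figure D3:**
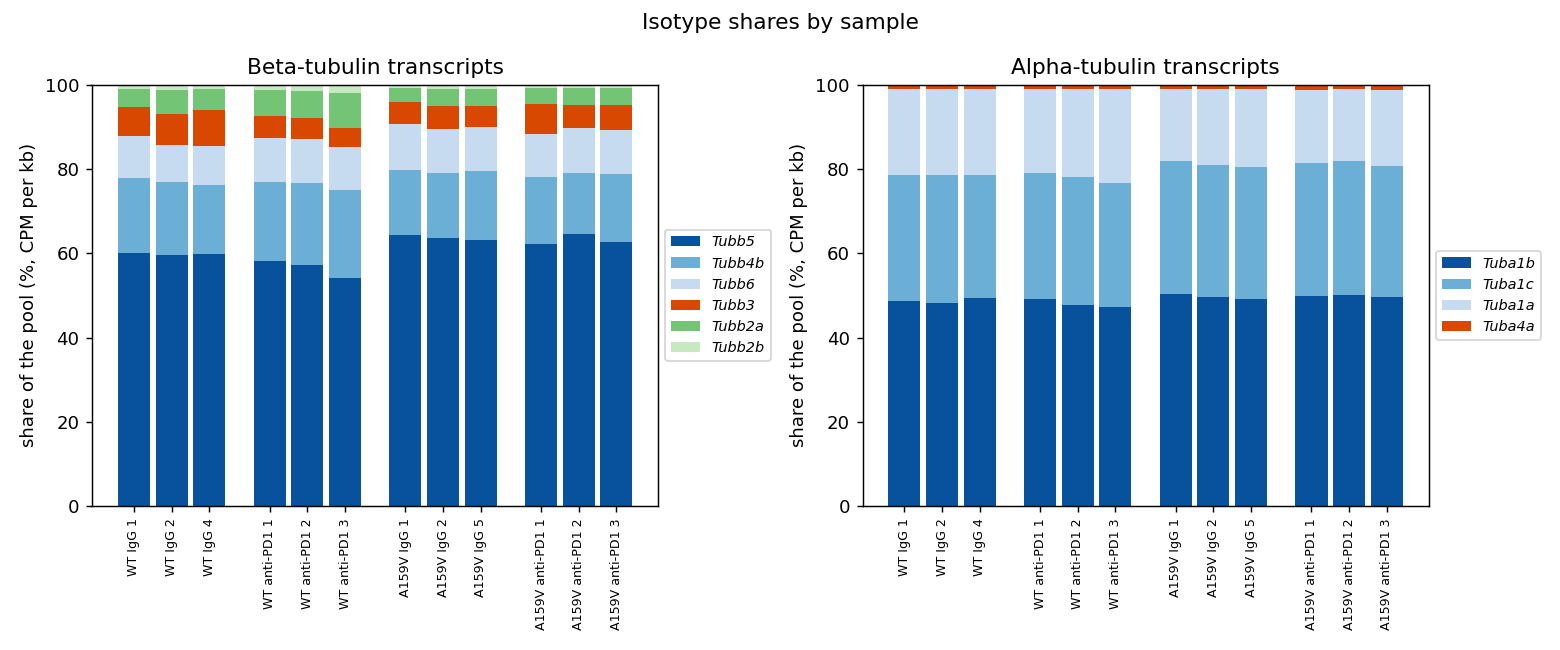
Share of each isotype in the summed per-length level of the 6 beta-tubulins (left) and the 4 alpha-tubulins (right), in percent, 1 bar per sample. Tubb5 took 56.5% to 63.7% of the beta pool by group mean and Tubb3 between 4.91% and 7.56%.

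In the alpha-tubulin pool, Tuba1a made up 20.5% (IgG) and 21.0% (anti-PD1) in WT and 17.8% (IgG) and 17.5% (anti-PD1) in A159V, lower in A159V by -3.08 points (exact permutation p = 0.005, adjusted p = 0.00714). Tuba1c gained 1.57 points (exact permutation p = 0.005, adjusted p = 0.00714) and Tuba1b 1.41 points (exact permutation p = 0.01, adjusted p = 0.0125), on shares near 30% and 49%. Tuba4a, the smallest share, went from 0.944% (IgG) and 1.01% (anti-PD1) in WT to 1.05% and 1.10% in A159V, higher by 0.0944 points (exact permutation p = 0.005, adjusted p = 0.00714). Between 53.4% and 73.0% of the 100-base stretches of Tuba1a, Tuba1b and Tuba1c are shared with other genes, mostly with one another. How such reads were counted is not given, so small shifts among these shares are uncertain.

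Across the 12 samples, Tubb5 varied with Tuba1c (Pearson's r = 0.98 on log2 CPM) and with Tubb6 (0.97), and Tuba1b with Tuba1c (0.996), a pair that shares much of its sequence. The closely related Tubb2a and Tubb2b varied with each other (0.853) and not with Tubb5 (-0.31 and -0.11). Tubb3 followed Tuba1b (0.837) and Tubb5 (0.772) and ran against Tubb2a (-0.43). These correlations describe samples that share libraries and groups, with n = 12.

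**Figure D4:**
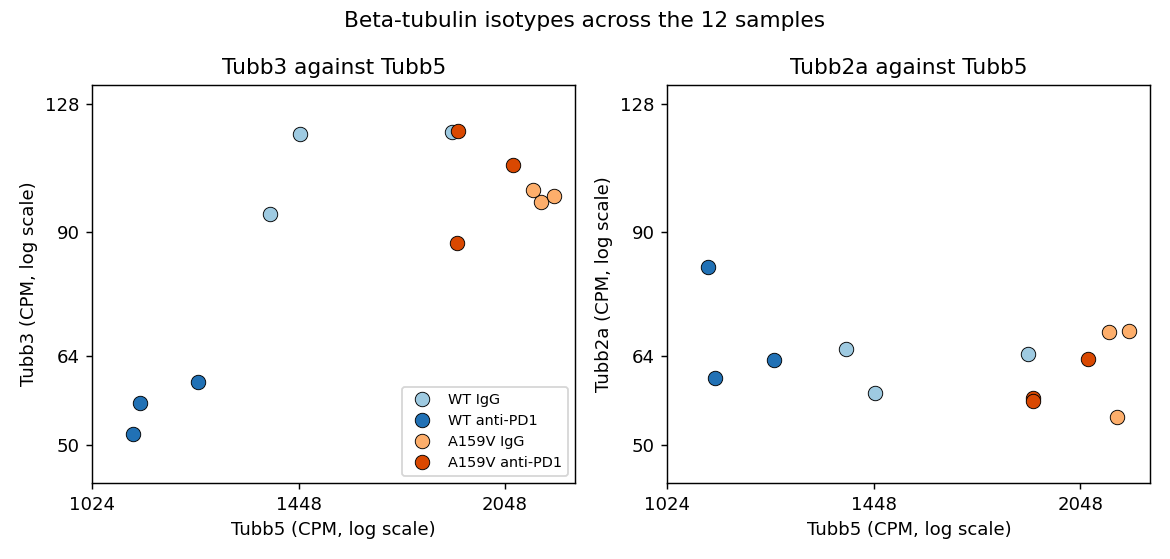
Level of Tubb3 (left) and Tubb2a (right) against Tubb5 in the 12 samples, in CPM on log scales, colored by group. The 3 WT anti-PD1 samples sit lowest for both Tubb3 and Tubb5, whereas Tubb2a shows its highest value there.

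The genes whose levels followed that of Tubb3 most closely over the 12 samples were E2f1 (Pearson's r = 0.932), a cell cycle transcription factor, Lig1 (0.928), the DNA ligase of replication, Tada2a (0.928), a subunit of histone acetyltransferase complexes, Irx2 (0.921), Nubp1 (0.901) and Tfap2a (0.900), a transcription factor. For E2f1 the group means were 103 CPM (IgG) and 77.8 (anti-PD1) in WT and 98.1 (IgG) and 99.9 (anti-PD1) in A159V. Among the genes with the lowest r were Sorl1 (-0.943) and Errfi1 (-0.922), an inhibitor of EGF receptor signaling. Errfi1 had 40.0, 91.4, 52.9 and 46.5 CPM in the same order. Each gene named here with a positive r had its lowest group mean in WT anti-PD1, and each with a negative r its highest. Low Tubb3 in that group chose the family, so the ranking is a description.

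Markers of other cells differed between the groups as well. The 9 leukocyte markers summed to 27.5 to 30.4 CPM (IgG) and 41.1 to 67.2 (anti-PD1) in WT and 38.9 to 57.3 (IgG) and 41.8 to 45.2 (anti-PD1) in A159V, and Ptprc, the pan-leukocyte gene, had 7.46 to 14.2 CPM in WT anti-PD1 against at most 2.81 elsewhere. Most of the leukocyte sum was Cd68, a macrophage gene that was called higher in A159V than in WT with treatments averaged (log2 fold change 0.45, adjusted p = 0.0177), whereas Ptprc, Cd8a, of cytotoxic T cells, and Itgam, of myeloid cells, were called lower. Cd8a had 1.71 to 5.70 CPM and Itgam 0.947 to 1.40 CPM in WT anti-PD1, against at most 0.328 and 0.251 CPM in the other groups. The leukocyte, fibroblast and endothelial sums were each highest, by group mean, where Tubb3 was lowest. The fibroblast values there overlapped those of WT IgG, and the leukocyte sums there overlapped those of both A159V groups. The 5 fibroblast markers summed to 293 to 596, 418 to 734, 178 to 249 and 170 to 217 CPM in the same order, and the 4 endothelial markers to 6.07 to 9.89, 13.4 to 15.0, 5.05 to 8.67 and 7.12 to 8.79 CPM. Their part in the tubulin values was not tested, and in bulk samples fewer cells of a type and less RNA per cell cannot be told apart. The 7 neuron markers summed to at most 1.61 CPM, with Nefl at 0 in every sample, and the 4 Schwann cell markers to at most 3.86 CPM, beside at least 51.5 CPM of Tubb3.

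Of the other tubulin genes, Tubb1, Tuba3a, Tuba3b, Tuba8 and Tubal3 had at most 7 counts in any sample and were not tested, and Tubb4a had 8 to 20 counts. Tubg1, the gamma-tubulin that nucleates microtubules, was the only one of the 5 tested that was called between genotypes (log2 fold change 0.43, SE 0.09, adjusted p = 0.00260), with 111 CPM on average in WT and 147 in A159V. Tubg2, Tubd1, the delta-tubulin of centrioles, and Tube1, the epsilon-tubulin, lay at or below 16.4 CPM and were not called, nor was Tubb4a.

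Among the 24 genes of tubulin folding, 6 were called higher, beside 19.1% of all genes, and 2 lower, beside 16.8%, in A159V, and their median log2 fold change was 0.17 beside 0.04 for all genes. Cct6a (0.50, adjusted p = 0.00330) and Cct7 (0.46, adjusted p = 0.00556), subunits of the chaperonin that folds tubulin and actin, and Tbcd (0.43, adjusted p = 0.00472), a cofactor of heterodimer assembly, rose. Pfdn5, a prefoldin subunit that hands chains to the chaperonin, was lower (-0.52, adjusted p = 0.00858). Ttc5, whose product marks tubulin mRNA for decay, was lower as well (-0.34, SE 0.11, adjusted p = 0.0269), with 20.2 to 25.3 CPM in WT and 15.2 to 21.5 in A159V, ranges that overlapped through A159V IgG replicate 5.

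Of 15 genes of the gamma-tubulin ring complex and its anchors, 2 were called higher (Tubg1 and Cdk5rap2, the latter with log2 fold change 0.37) and none lower, beside the same 19.1% and 16.8% of all genes. Of 20 tested genes of tubulin modification, 6 were higher and 3 lower, again beside 19.1% and 16.8%. Ttll12 (0.72, adjusted p = 3.63e-05), Ttll7 (0.82, adjusted p = 0.00157), which adds glutamates to beta-tubulin tails, and Ttll6, at 0.153 CPM on average in WT and 1.17 in A159V, rose. Ttll6 had only 1 to 31 counts per sample, and its WT mean lies in the range of 3 counts (0.144 to 0.201 CPM). Tpgs1, a subunit of a polyglutamylase (-0.70, adjusted p = 0.00150), Agtpbp1, which removes glutamates (-0.48, adjusted p = 0.00277), and Agbl3 (-0.43, adjusted p = 0.0421) were lower.

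Of 39 tested microtubule-associated proteins, 8 were higher and 5 lower, beside 19.1% and 16.8% of all genes. Camsap1 (0.48), which guards minus ends, Mapre2 (0.36), a plus-end binder, and Map6 (0.34), a stabilizer, rose with adjusted p-values from 0.00493 to 0.00944. Dclk1, a doublecortin-like kinase, fell by 4.47 on the log2 scale (adjusted p = 1.18e-06), from 52.2 CPM on average in WT to 2.35 in A159V, and Mid2 by 1.08. Of 27 genes of mitosis, 15 were called higher and none lower, beside 19.1% and 16.8% of all genes, with a median log2 fold change of 0.36 beside 0.04: Plk1 (0.59, adjusted p = 0.000172), a mitotic kinase, Kif2c (0.48, adjusted p = 0.000297), a kinesin that takes microtubules apart, and Incenp (0.46, adjusted p = 0.000938), a subunit of the Aurora B complex, had the smallest p-values. The number called differed between the 2 treatments, but no gene of this list was called in the interaction. Under IgG alone, 5 of the 27 were called higher and 1, Birc5, lower, beside 15.6% and 12.4% of all genes. Under anti-PD1, 11 were called higher and none lower, beside 11.2% and 10.2%. The mean log2 level of the list was 6.59 in A159V IgG replicate 5, against 6.98 in each of replicates 1 and 2. The part of this sample in the IgG count was not tested. In no list, nor among all genes, was a gene called between treatments in A159V. In the WT comparison, read as a description, Aurkb (-0.73), Cdk1 (-0.80) and Birc5 (-0.77) of the mitosis list were past the thresholds toward lower levels with anti-PD1, as was Map9 (1.18) toward higher ones. The lists were chosen with earlier results known, and 47 calls over these lists became 31 after upper-quartile normalization or with at least 10 counts in every sample. WT IgG replicate 1 had the highest sum of its group for tubulin folding (5718 CPM against 4504 and 4146). For the microtubule-associated proteins it had the lowest (3208 CPM against 3933 and 4600). List counts without this sample are not given here.

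**Figure D5:**
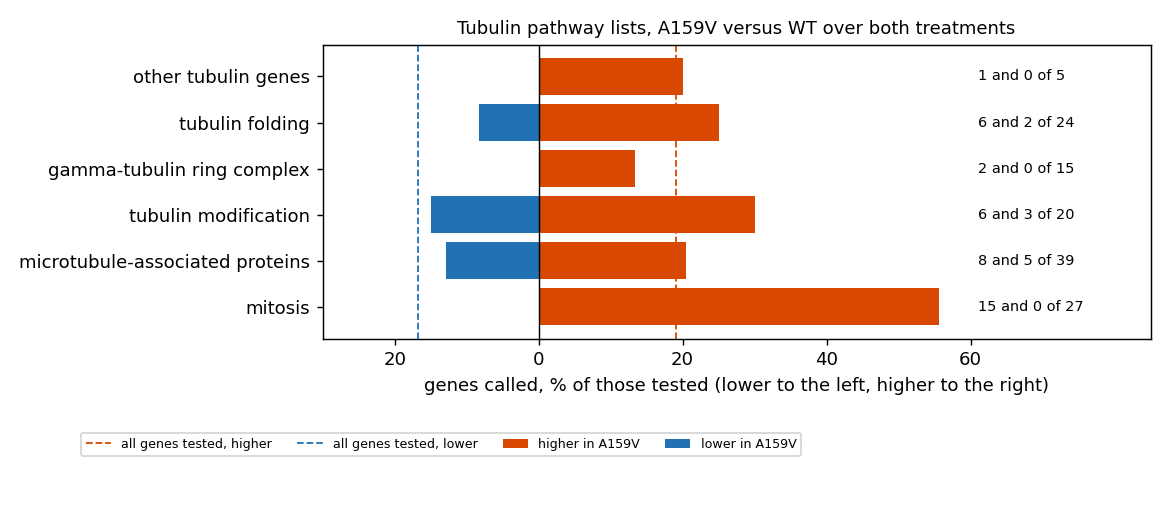
Share of the tested genes of each list called higher (right) or lower (left) in A159V than in WT, both treatments averaged, in percent, with dashed lines at the shares of all genes tested (19.1% higher and 16.8% lower). The numbers at the right are the genes called higher and lower of those tested, and mitosis had 15 higher of 27.

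The mean log2 level of the 27 mitosis genes varied over the 12 samples with Tubb5 (Pearson's r = 0.741), Tuba1b (0.710), Tubb6 (0.693), Tuba4a (0.692) and Tubb3 (0.664), and ran against Tubb2a (-0.52) and Tubb2b (-0.51). These values describe 12 samples that share their groups, and no test was made of them.

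Since several members varied together, the 250 bases before their RefSeq start sites (GRCm38.p6) were searched for CCAAT on either strand (CCAAT or ATTGG), which is held by 33.8% of 32851 such windows of the genome. It occurred 5 times in Tubb4b, 2 times in Tubb5, once each in Tubb3, Tuba1a and Tuba1c, and 0 times in Tubb2a, Tuba1b and Tuba4a. A match here describes letters and not a bound site, and Tuba1b and Tuba1c, the pair with the highest correlation, differed in it. The same search for GGGCGG, the core that SP1 binds (32.7% of windows), found 2 copies each in Tubb3, Tubb2a, Tuba1b and Tuba4a, 1 each in Tubb4b and Tuba1a, and 0 in Tubb5 and Tuba1c. The E-box CACGTG (6.02% of windows) occurred once, in Tubb5, and TTTGAA, the CHR element of cell cycle genes (16.0% of windows), once, in Tubb4b. Tubb2b and Tubb6 were not analysed here. The windows of Tubb5 (chr17:35838302-35838551, minus strand) and Tubb4b (chr2:25224703-25224952, minus strand) hold the most copies, shown in capitals.
Tubb5: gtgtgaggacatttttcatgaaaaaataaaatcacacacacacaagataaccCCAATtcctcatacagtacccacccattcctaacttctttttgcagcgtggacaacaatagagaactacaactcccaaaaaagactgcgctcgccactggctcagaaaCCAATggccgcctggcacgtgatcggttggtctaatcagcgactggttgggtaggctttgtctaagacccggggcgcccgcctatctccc
Tubb4b: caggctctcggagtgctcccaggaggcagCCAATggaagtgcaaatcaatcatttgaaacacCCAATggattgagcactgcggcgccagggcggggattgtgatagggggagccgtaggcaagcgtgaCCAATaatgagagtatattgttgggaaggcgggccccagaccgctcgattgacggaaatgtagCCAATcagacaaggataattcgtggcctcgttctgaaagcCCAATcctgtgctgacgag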

How the data were processed

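Raw read counts per gene were deposited by the authors for 12 mouse samples. The authors aligned polyA paired-end reads to mm10 with STAR and counted them with summarizeOverlaps; versions, the overlap mode and the strand setting are not given in the sources used here. Groups were taken from the genotype and treatment labels. IDs were matched to GENCODE M21, and positions are GRCm38. Counts were analysed with edgeR 4.0.16 in R 4.3.3: TMM, filterByExpr, glmQLFit over 4 groups (8 residual degrees of freedom), glmQLFTest, Benjamini-Hochberg over 14340 genes. Standard errors are the log2 fold change divided by the root of F. Called genes had adjusted p below 0.05 and a log2 fold change beyond 0.3. Levels per length used the union of exons. Shares were compared with exact 2-sided permutation tests, stratified by treatment where both were pooled. DESeq2 1.42.0 and voom with limma 3.58.1 were alternatives. The scripts were tested on simulated data. Interval and depth statements cover the spread between samples. Members, lists and tests were chosen with earlier results of these data known. Named were the members, other tubulins, up to 3 called genes per list and direction with the smallest p, the 6 highest and 3 lowest correlations with Tubb3, its neighbours, Rac1 and markers; some items are not reported here.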

Additional observations from a re-analysis of the deposited data

How the results depend on the processing

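Members called in the averaged genotype comparison (6, Tubb3 included) ranged from 5 to 7 as each sample was left out. Those under anti-PD1 numbered 6 each time, Tubb3 included, and those between treatments in A159V stayed at 0. Under IgG (2 called), the count was 1 with RLE size factors, without a filter on low counts or with at least 10 counts in every sample, 0 with upper-quartile normalization or with only the groups compared in the fit, and 0 to 6 with a sample left out. In WT between treatments, a description (1 past the thresholds), it was 4 with DESeq2, 0 with only the groups compared, and 0 to 6 with a sample left out. The interaction (0 called) gave 1 without a filter and with DESeq2, and 0 to 1 with a sample left out. The Tubb3 share difference (-0.634 points) ranged from -0.869 to -0.364. List calls (47) became 31 with upper-quartile normalization or at least 10 counts. The cause of these shifts was not tested.

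With the replicate number as a block, members called were 1 under IgG, 6 under anti-PD1, 6 averaged, 0 between treatments in A159V, 6 in WT and 1 for the interaction, and list calls were 69. Same-numbered samples correlated between -0.178 and 0.205 in their deviations from group means, so the numbers were not taken as pairing, and under anti-PD1 no sample correlated best with its own number. Depth limits the low tubulins: 3 counts correspond to 0.144 to 0.201 CPM.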
